A study of Caenorhabditis elegans with 12 samples.

Results

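RNA that came down with a FLAG antibody was compared with RNA that came down with a MYC antibody in 3 transgenic strains of Caenorhabditis elegans, with the strain as a term, and the genes that moved the same way in all 3 strains were described. All 12 libraries of the study belong to this comparison. They are 6 FLAG immunoprecipitations (IPs) and 6 MYC IPs, 2 of each per strain. Whole worms were grown from hatched L1 larvae and frozen as young adults. Each strain carried 1 inserted transgene for a FLAG-tagged Y-box protein: rrrSi300 for CEY-1 under the cey-1 promoter, rrrSi233 for CEY-2 under the cey-2 promoter, and rrrSi307 for CEY-4 under the dpy-30 promoter. Each strain is referred to by its tagged protein, as CEY1, CEY2 or CEY4. Each transgene kept the 3' UTR of its own cey gene and carried, behind an operon linker, a PEST:GFPH2B marker with the tbb-2 3' UTR and the unc-119(+) selection marker. No MYC tag is named in the strains, and the MYC IPs of the same strains were the controls. No input RNA was analysed here, so every value is relative to a control IP. CEY-4 was not under its own promoter, which limits how far that strain stands for the native protein. Whether the replicates came from separate cultures is not stated, so a p-value speaks only for the variation among the libraries at hand.

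Y-box proteins hold a cold-shock domain that binds RNA with little sequence preference, and they coat many cytoplasmic mRNAs. They are known for packaging stored mRNAs in oocytes and for affecting translation. In this worm CEY-2 and CEY-3 are known as germline proteins, while CEY-1 and CEY-4 are also found in somatic tissues.

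The libraries differed in depth and composition. The FLAG libraries held 22915137 to 33529549 counts and the MYC libraries 3353523 to 12802412. Scaling by TMM (a trimmed-mean factor that sets the bulk of genes in one library level with the bulk in another) gave factors of 0.548 to 0.640 for the FLAG libraries and 1.51 to 2.13 for the MYC libraries. Levels are given as TMM-scaled CPM, counts scaled to a common library size, which do not correct for gene length. On this scale the median log2 fold change of FLAG over MYC was −0.34 over the 15194 genes tested, and with libraries scaled by their total counts it was −1.87. Every direction below is therefore relative to the bulk of genes. All 27 tissue markers searched were found. Summed over 6 germline markers, levels were 14949 to 24235 CPM in the FLAG libraries and 2674 to 3866 CPM in the MYC libraries. For 4 intestine markers they were 23058 to 101416 CPM (FLAG) and 12095 to 14857 CPM (MYC), and for 3 body wall muscle markers 2176 to 9950 CPM (FLAG) and 2233 to 2640 CPM (MYC). Few genes weighed heavily in the germline and intestine sums, which do not stand for whole tissues. The germline marker cpg-1 alone had 9649 to 17286 CPM in FLAG and 1333 to 1570 CPM in MYC libraries. The intestine markers vit-2 and vit-6 averaged 30032 and 32680 CPM in FLAG and 5376 and 7789 CPM in MYC libraries. No marker was at 0 in all FLAG or in all MYC libraries. These sums compare RNA recovered with 2 antibodies from the same strains, and do not measure how much of a tissue the worms held. Where strains differ, fewer cells of a type and less RNA per cell cannot be told apart in whole worms.

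FLAG IPs of the 3 strains recovered a shared set of mRNAs. With strain as a term, 4327 genes (28.5% of those tested) were higher with FLAG and 5813 (38.3%) were lower, at an adjusted p under 0.05 by edgeR's quasi-likelihood test. That fit has no term for strain differences in the change, so these enter its residual spread and its standard errors. It still takes libraries as its units, so its p-values do not treat the 3 strains as the replicates. Tested in each strain against its own controls, 3177 genes (20.9%) were higher in all 3 strains and 2346 (15.4%) were lower in all 3. These counts describe a set chosen by the calls themselves. The 3 contrasts share no library. A further 2154 genes (14.2%) were called higher in 1 strain and lower in another, and 1718 were called in none. Across all genes tested the log2 fold changes correlated with r = 0.71 between CEY1 and CEY4, 0.68 between CEY2 and CEY4, and 0.58 between CEY1 and CEY2. These values are across genes, which are not independent replicates.

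**Figure D1:**
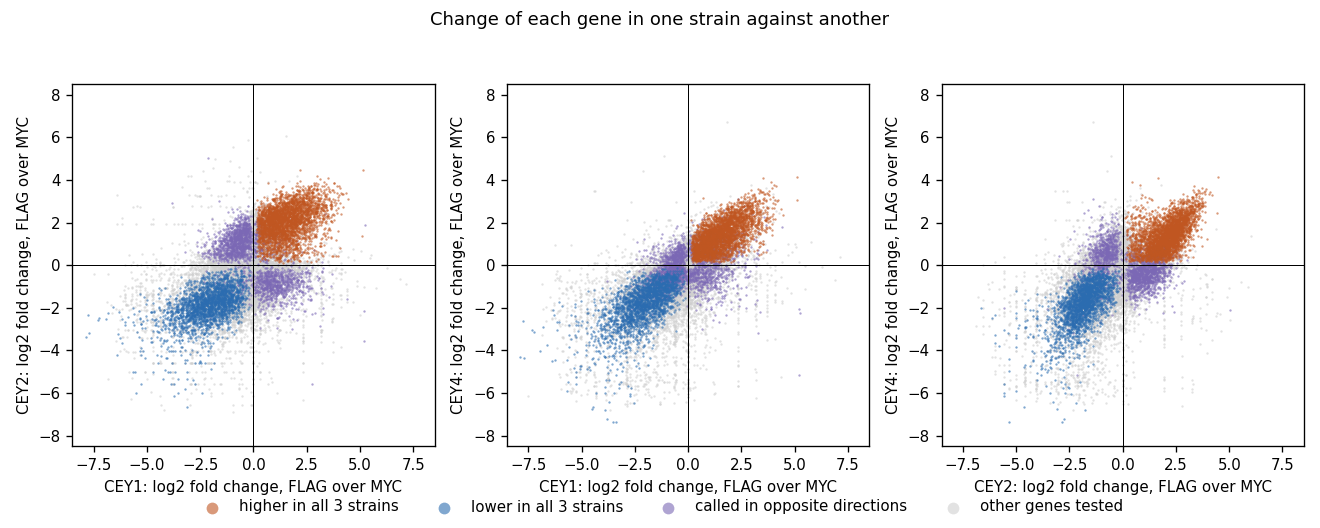
Log2 fold change of FLAG over MYC in one strain (x axis) against another (y axis) for the 15194 genes tested, 1 point per gene, on the TMM scale. The 3177 genes higher and the 2346 lower in all 3 strains fill the upper right and lower left by construction, and many of the 2154 genes called in opposite directions lie in the other corners. With total-count scaling the points shift down and to the left.

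The shared set was large in counts as well as in genes, and this share needs no scaling factor. The 3177 genes higher in all 3 strains took between 78.2% and 84.9% of each FLAG library's counts, and between 55.3% and 60.2% of each MYC library's. The 2346 genes lower in all 3 took 1.09% to 1.36% of the FLAG libraries and 8.10% to 10.1% of the MYC libraries. FLAG and MYC libraries did not overlap for either class. Both classes were chosen on the same libraries, so these shares describe them and test nothing.

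**Figure D2:**
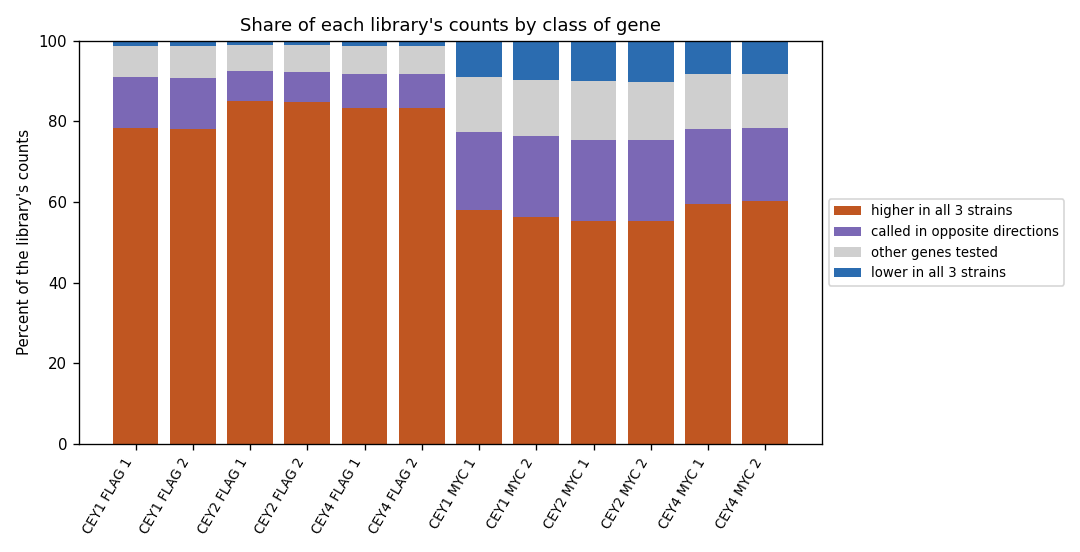
Percent of each library's counts (y axis) held by genes of each class, for the 6 FLAG libraries and then the 6 MYC libraries (x axis). The genes higher in all 3 strains fill 78.2% to 84.9% of the FLAG libraries and 55.3% to 60.2% of the MYC libraries.

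The mRNAs with the most reads in the FLAG IPs included those of yolk and eggshell proteins, and most of them were in the shared set. Of the 12 genes with the highest mean FLAG level, 11 were higher in all 3 strains. So were 20.9% of all genes tested and 85.1% of the 174 genes with a mean of 1000 CPM or more. The 12 were picked by the FLAG level that the calls rest on, so their class lends no support. With total-count scaling the log2 fold changes of the 11 ran from −0.19 (eef-2) to 3.03 (pqn-20). The yolk protein gene vit-6 averaged 32679.8 CPM over the FLAG libraries and 7789 CPM over the MYC libraries (log2 fold change 1.84 ± 0.25, SE). The eggshell genes cbd-1 and cpg-1 followed vit-2, with 17542 and 12554 CPM in FLAG and 2379 and 1439 CPM in MYC libraries. Also among the 12 were the ubiquitin ligase genes eel-1 (2.40 ± 0.22) and ubr-5 (1.82 ± 0.21), the poly(A)-binding protein gene pab-1 (9632 CPM in FLAG and 1818 CPM in MYC libraries), the dynein heavy chain gene dhc-1 (2.21 ± 0.19) and the topoisomerase gene top-2 (2.93 ± 0.12). The exception was the elongation factor gene eef-1A.1, with log2 fold changes of 2.11 with CEY1, 1.29 with CEY4 and −0.01 with CEY2 (1.14 ± 0.26 over the strains, and −0.40 with total-count scaling).

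A gene's class went with the number of reads behind it. Of the 2256 genes with a mean of 100 CPM or more over the 12 libraries, 1738 (77.0%) were higher in all 3 strains and 70 lower. Of the 4149 genes between 10 and 100 CPM, 1321 were higher and 483 lower. Of the 8789 genes under 10 CPM, 118 were higher and 1793 lower. The median FLAG over MYC log2 fold change was 1.62, 0.47 and −1.11 in these 3 groups. Counts are not corrected for gene length, so the groups order genes by reads and not by transcripts. The mean includes the FLAG libraries that the calls rest on, and the part of read level in the calls was not tested. A gene with few reads could also pass the filter on low counts through its MYC libraries alone.

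**Figure D3:**
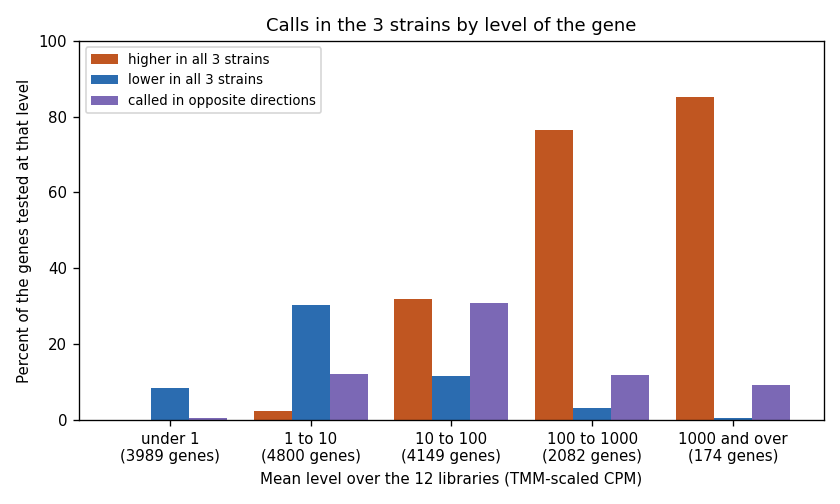
Percent of the genes tested (y axis) that were called higher in all 3 strains, lower in all 3, or in opposite directions, by the gene's mean TMM-scaled CPM over the 12 libraries (x axis). The share higher in all 3 climbs to 85.1% of the 174 genes at 1000 CPM and over, and the share lower in all 3 is highest, at 30.3%, between 1 and 10 CPM.

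To find the mRNAs with the largest change in every strain, genes were ranked by the change in their weakest strain. The 12 highest encode chromatin regulators, signalling proteins, a nucleoporin and glutamine-rich proteins. Only genes in which every FLAG library lay on one side of every MYC library were ranked, a condition that 3012 genes (19.8%) met as higher and 1943 (12.8%) as lower, and only those with a mean of at least 10 CPM with the higher antibody. For the 24 genes ranked first, 12 in each direction, the adjusted p in the fit with strain ran from 8.49e-11 to 2.84e-08 by edgeR. Of the 12 higher genes, none lost its direction with total-count scaling, where their log2 fold changes ran from 1.87 to 3.03.

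First was pqn-20 (WBGene00004110), one of the genes named for stretches rich in glutamine and asparagine that resemble yeast prions. Its level ran from 5469 to 11611 CPM in the FLAG libraries with a median of 6061 CPM, against 236 to 384 CPM with a median of 310.4 CPM in the MYC libraries. The log2 fold change was 4.58 ± 0.18, with 5.13 in CEY1, 4.49 in CEY2 and 4.13 in CEY4. Its CEY1 FLAG libraries stood above the other FLAG libraries, and its CEY2 MYC libraries were the lowest on average. The other genes named for glutamine were pqn-41 and pqe-1. The mRNA of pqn-41, which in this worm acts in the death of the male linker cell, ran from 432 to 695 CPM (FLAG) and from 34.0 to 44.4 CPM (MYC), a log2 fold change of 3.73 ± 0.16. That of pqe-1, which protects worm neurons from polyglutamine toxicity, ran from 2683 to 3762 CPM (FLAG) and from 233 to 321 CPM (MYC), a log2 fold change of 3.60 ± 0.14.

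Several of the 12 act in chromatin or at the nuclear pore. The acetyltransferase gene cbp-1, the worm CBP/p300, had 4205 to 4969.9 CPM in FLAG and 369 to 449 CPM in MYC libraries. Its strain values of 3.57 (CEY1), 3.46 (CEY2) and 3.33 (CEY4) differed by 0.23. The gene lin-36, of the class B synthetic multivulva group that represses transcription, had 2020.1 to 2623 CPM in FLAG and 144 to 260 CPM in MYC libraries (3.55 ± 0.13). In both genes the FLAG and MYC ranges lay far apart, more than any strain from another. The gene sumv-1, found as a suppressor of the same multivulva group, had 3.70 ± 0.14. The nucleoporin gene npp-14, the worm NUP214, had 3.44 ± 0.12.

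Signalling, trafficking and migration genes made up the others. The kinase gene wnk-1, which acts in ion and water balance, had 4056 to 4962 CPM in FLAG and 292 to 382 CPM in MYC libraries (3.75 ± 0.12). The Wnt pathway gene apr-1, related to the tumour suppressor APC, had 1586 to 2008 CPM in FLAG and 119.2 to 159 CPM in MYC libraries (3.66 ± 0.14). The gene mig-38, needed for migration of the gonad's distal tip cells, had 2026 to 2567 CPM in FLAG and 201 to 235 CPM in MYC libraries (3.42 ± 0.11). Of the 12, mig-38 was the one for which no difference between strains was called: 3.46 in CEY1, 3.34 in CEY2 and 3.45 in CEY4 (adjusted p = 0.277 by edgeR's interaction test). The DnaJ-domain gene dnj-5 (3.52 ± 0.12) and pdzd-8, related to a mammalian lipid-transfer protein of membrane contacts (3.67 ± 0.15), completed the set.

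**Figure D4:**
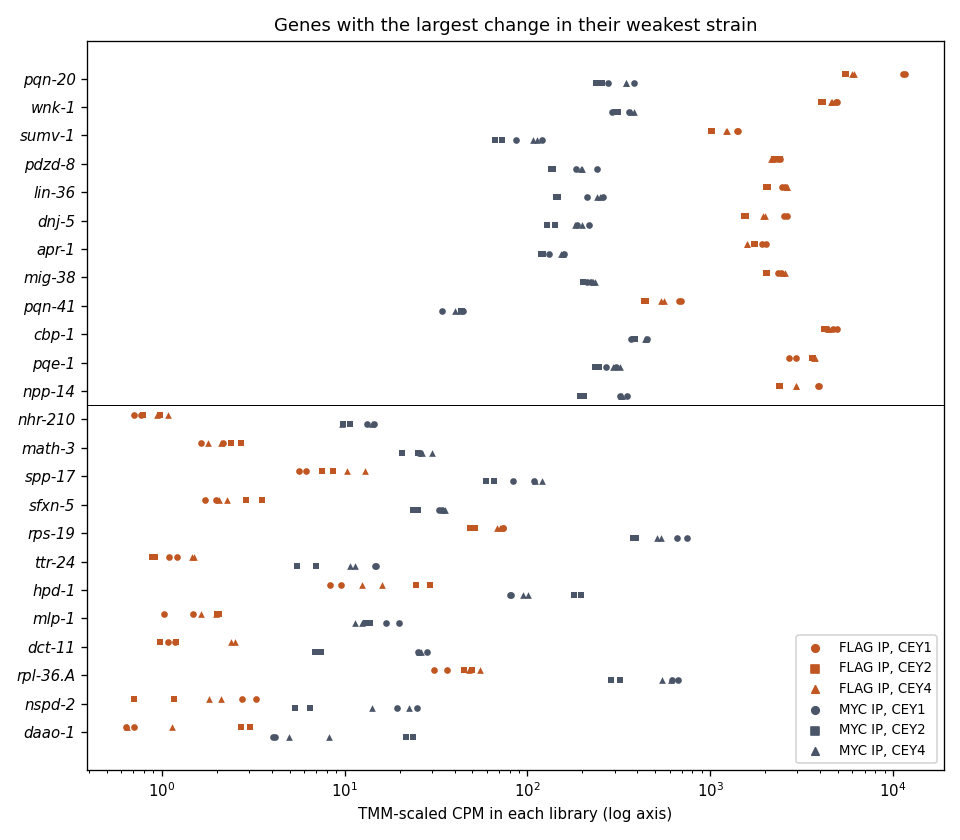
TMM-scaled CPM in each library (x axis, log scale) for the 12 genes with the largest increase and the 12 with the largest decrease in their weakest strain (y axis, split by a line), 1 point per library. The genes were chosen so that the 6 FLAG points and the 6 MYC points do not overlap. The pqn-20 points lie at 5469 to 11611 CPM for FLAG and 236 to 384 CPM for MYC.

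The 12 genes with the largest decrease in their weakest strain under the same 2 conditions have varied roles, given with each below. Most had few reads: 10 of the 12 had mean FLAG levels of 0.876 to 16.7 CPM, and rps-19 and rpl-36.A had 64.3 and 44.2 CPM. The small-subunit gene rps-19 (WBGene00004488) had 48.4 to 73.5 CPM in FLAG libraries with a median of 69.4 CPM, against 376 to 745 CPM with a median of 524 CPM in MYC libraries. Its log2 fold change was −3.04 ± 0.13, with −3.26 in CEY1, −2.94 in CEY2 and −2.91 in CEY4. The large-subunit gene rpl-36.A had a median of 46.5 CPM in FLAG and 579 CPM in MYC libraries (−3.47 ± 0.23). In both genes CEY1 had the largest decrease.

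First by rank, under the minimum of 10 CPM, was the nuclear hormone receptor gene nhr-210, with 0.704 to 1.08 CPM in FLAG and 9.65 to 14.5 CPM in MYC libraries (−3.74 ± 0.21). The MATH-domain gene math-3 had a median of 2.14 CPM in FLAG and 25.7 CPM in MYC libraries (−3.58 ± 0.20). The saposin-like gene spp-17 had 5.64 to 12.9 CPM in FLAG and 59.7 to 120.3 CPM in MYC libraries (−3.42 ± 0.20). The tyrosine breakdown gene hpd-1 had 8.30 to 29.2 CPM in FLAG and 80.6 to 197 CPM in MYC libraries (−2.91 ± 0.16). For hpd-1 the CEY2 libraries were the highest with either antibody, so the strain difference in level was shared by FLAG and MYC. The same held for the D-amino acid oxidase gene daao-1 (−2.85 ± 0.21). The others were the sideroflexin gene sfxn-5 (−3.69 ± 0.23), the transthyretin-related ttr-24 (−3.11 ± 0.20), the muscle LIM protein gene mlp-1 (−3.07 ± 0.23), dct-11 (−3.55 ± 0.27) and nspd-2, of a nematode-specific peptide family (−2.93 ± 0.21). For 6 of the 12, namely nhr-210, math-3, ttr-24, hpd-1, nspd-2 and daao-1, no difference between strains was called (adjusted p from 0.0608 to 0.809 by edgeR), which at these read numbers does not show that the strains were alike.

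Genes higher in all 3 strains mostly moved by different amounts, while in fewer of the lower genes a difference between strains was called. Of the 3177 genes higher in all 3 strains, 2935 (92.4%) also differed between strains in an interaction test, against 8784 (57.8%) of all genes tested, and of the 2346 lower genes 842 (35.9%) did. The highest minus the lowest strain log2 fold change had a median of 1.05 in the higher genes and 0.94 in the lower genes. Over all genes tested it was 1.41. The median FLAG level was 175 CPM in the higher genes and 1.47 CPM in the lower genes. The part of read number in these calls was not tested. Among the higher genes CEY2 had the largest change in 2112, CEY1 in 803 and CEY4 in 262. Median FLAG levels of these genes were 168 CPM in CEY1, 171 CPM in CEY2 and 163 CPM in CEY4, while their MYC medians were 61.2, 41.9 and 64.4 CPM. These levels depend on the scaling: with total counts the FLAG medians were 93.1, 109 and 92.4 CPM in CEY1, CEY2 and CEY4, and the MYC medians 94.8, 88.7 and 97.7 CPM. On that scale CEY2 had the largest change in 1737 of the genes, CEY1 in 961 and CEY4 in 479. At the edge of the rule for the higher class, tipn-1 lay just inside, with 0.21 in CEY1 as its weakest strain, and ctsa-2 just outside, with 0.12 in CEY2. In the lower class the nearest were cpt-5 inside (−0.31 in CEY1) and phb-2 outside (−0.16 in CEY2).

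With total-count scaling 744 of the 3177 genes (4.90% of those tested) were still higher in all 3 strains, and 320 were lower in all 3. The lower class on that scale held 8053 genes (53.0%). All 2346 lower genes were lower on both scales. Total-count scaling moves every change down, so this outcome was fixed in advance and lends the lower class no support. The 744 genes had a median log2 fold change of 2.46 on the TMM scale. They took 37.7% to 42.0% of the counts of each FLAG library and 17.5% to 19.4% of each MYC library.

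Germline regulators, chromatin regulators and cell cycle genes were mostly in the higher class. Of 42 chromatin regulators 37 were higher in all 3 strains and 0 lower, of 39 germline RNA regulators 32 and 0, of 47 cell cycle, kinetochore and centrosome genes 37 and 0, and of 31 P-granule and germline small RNA genes 24 and 0. Over all genes tested the shares were 20.9% higher and 15.4% lower, and with total-count scaling 4.90% and 53.0%. Their median pooled log2 fold changes were 1.98, 1.84, 1.68 and 1.73, and with total-count scaling 0.44, 0.30, 0.13 and 0.19. With total-count scaling 20 chromatin regulators were higher in all 3 strains and 4 lower. On that scale the counts were 17 higher and 3 lower for germline RNA regulators, 16 and 6 for cell cycle genes, and 9 and 8 for P-granule genes. Summed germline markers, in which cpg-1 weighed heavily, moved the same way, and their part in these counts was not tested.

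Examples show how far the members of these groups went. Among chromatin regulators the SET-domain gene set-9 stood at 2369.8 CPM in FLAG and 204 CPM in MYC libraries on average (3.49 ± 0.17), and its paralog set-26 at 3.29 ± 0.15. Among germline RNA regulators, the Nanos homolog nos-3 stood at 1907 CPM in FLAG and 156 CPM in MYC libraries (3.53 ± 0.19). The ataxin-2 homolog atx-2 had 3.17 ± 0.15 and gls-1, a partner of the germline regulator GLD-3, 2.80 ± 0.13. Among P-granule and small RNA genes mut-16, which organises the foci where small RNAs are amplified, had 3.17 ± 0.13, the P-granule gene meg-2 2.74 ± 0.20 and the Argonaute gene wago-1 2.63 ± 0.15. The centromere gene knl-2 had 3.19 ± 0.12 and was even across strains, at 3.16 in CEY1, 3.28 in CEY2 and 3.14 in CEY4. The centriole and centrosome genes spd-2 (3.17 ± 0.14) and sas-4 (2.89 ± 0.15) were close to it.

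Genes of mRNA repression and decay, meiosis and the eggshell were also mostly higher, but their medians turned negative with total-count scaling. On that scale the median of all genes tested was −1.87, with 4.90% higher and 53.0% lower in all 3 strains. On the TMM scale 20.9% of all genes were higher and 15.4% lower. Of 35 mRNA decay and repression genes 27 were higher in all 3 strains and 0 lower (median 1.32). With total-count scaling 6 were higher and 10 lower (median −0.22). They include ifet-1, the worm 4E-T, a translational repressor (2.78 ± 0.17), the CCR4-NOT scaffold gene let-711 (2.46 ± 0.13) and the decapping enzyme gene dcap-2 (2.38 ± 0.13). Of 34 meiosis genes 26 were higher and 0 lower (median 1.36), against 5 and 5 with total-count scaling (median −0.18). Those higher on the TMM scale include the cohesin gene rec-8 (2.66 ± 0.15), and rad-50 (2.05 ± 0.11) and com-1 (2.34 ± 0.18), which process DNA breaks. Of 16 eggshell and egg activation genes 10 were higher, 0 lower and 5 called in opposite directions (median 1.51), against 3 higher and 3 lower with total-count scaling (median −0.02). Those higher on the TMM scale include cpg-1 (3.09 ± 0.15), cbd-1 (2.85 ± 0.20) and egg-6 (2.31 ± 0.20).

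Among genes with a mean of 100 CPM or more, 77.0% of all genes were higher in all 3 strains. Genes can reach that mean through the FLAG libraries in which they are high, so the counts at this level describe the groups and lend them no support. All 30 chromatin regulators, all 21 decay and repression genes and all 11 meiosis genes at this level were higher in all 3, as were 29 of 31 germline RNA regulators, 30 of 33 cell cycle genes, 19 of 21 P-granule genes and 8 of 11 eggshell genes.

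The glutamine-rich pqn and abu genes were less uniform than their leading members. Of 57 tested, of 70 in the table, 17 (29.8%) were higher in all 3 strains, against 20.9% of all genes, and 1 was lower. Another 10 (17.5%) were called in opposite directions, near the 14.2% of all genes. Of the 57, 29 had a mean under 10 CPM. The medians of the 57 were 2.23 with CEY1 and 0.11 with CEY2, with CEY4 between them. Besides pqn-20 and pqn-41, pqn-21 was high in all 3, at 366 CPM in FLAG and 44.7 CPM in MYC libraries (2.95 ± 0.18), and pqn-24 was the one lower in all 3, at 1.36 and 4.66 CPM (−1.77 ± 0.22). Reads shared by close members of this family could not be told apart.

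Ribosomal protein mRNAs were frequent among the mRNAs with many reads that were lower in all 3 strains. Of 79 ribosomal protein genes 36 were lower in all 3, 5 were higher and 29 were called in opposite directions (median −0.62, against −0.34 over all genes tested). Of the 70 genes at 100 CPM or more that were lower in all 3 strains, 25 encode ribosomal proteins and 12 cuticle collagens. At that level 62 ribosomal protein genes were tested: 25 were lower and 5 higher, while 77.0% of all genes at that level were higher. The lowest were rpl-36.A, rps-19 and rpl-43, the last at 50.4 CPM in FLAG and 381 CPM in MYC libraries (−2.92 ± 0.15). The 5 that were higher were rps-6 (1.75 ± 0.33), rpl-7A (1.56 ± 0.36), rpl-20 (1.56 ± 0.33), rla-0 (0.87 ± 0.26) and rps-4 (0.64 ± 0.14), of which the first 3 were named after their values were seen. In each of them the change was largest with CEY1, and in none were the FLAG and MYC libraries all separated. With total-count scaling rps-4 and rla-0 turned negative, at −0.90 and −0.67, and the other 3 lay between 0.02 and 0.22. As a share of all counts the ribosomal protein genes took 1.06% to 6.45% of the FLAG libraries and 4.65% to 6.13% of the MYC libraries, with the CEY1 FLAG libraries at 6.31% and 6.45%. The members lower in all 3 strains therefore stood beside others that were high with CEY1.

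Other parts of the translation and energy machinery were divided, beside 20.9% of all genes higher and 15.4% lower. Of 39 translation initiation and elongation factor genes 12 (30.8%) were higher in all 3 strains and 6 (15.4%) lower, so the lower share was that of all genes. The scaffold gene ifg-1, the worm eIF4G, had 2.24 ± 0.11 and was even across strains, and the elongation factor gene eef-2 had 1.35 ± 0.13 (−0.19 with total-count scaling), while iff-1, an eIF5A gene of the germline, had −1.80 ± 0.20. Of 33 proteasome subunit genes 11 (33.3%) were higher and 2 lower. The lid gene rpn-5 had 2.03 ± 0.23 and the core gene pas-3 −1.33 ± 0.23. Of 32 aminoacyl-tRNA synthetase genes 14 (43.8%) were higher and 1 lower, with the valyl gene vars-1 at 258 CPM in FLAG and 91.6 CPM in MYC libraries (log2 fold change −0.04 with total-count scaling). Of 37 splicing genes 13 (35.1%) were higher and 3 lower, and prp-8, the large core protein of the spliceosome, had 2.64 ± 0.13. Of 66 respiratory chain, ATP synthase and assembly genes 2 were higher and 24 (36.4%) lower, among them the complex I gene ndub-11 at 14.9 CPM in FLAG and 59.3 CPM in MYC libraries. The higher ones were atp-2 (0.78 ± 0.12) and sdha-2 (0.68 ± 0.17), and both turned negative with total-count scaling, at −0.76 and −0.86. Of 69 mitochondrial ribosomal protein genes 6 (8.70%) were higher and 9 lower, the lower share being near that of all genes. With total-count scaling 0 proteasome genes were higher in all 3 strains and 29 lower. For synthetase genes these counts were 0 and 23, for splicing genes 1 and 18, and for factor genes 1 and 29. Of all genes 4.90% were higher and 53.0% lower on that scale. At 100 CPM or more on the TMM scale, 46.7% of proteasome, 50% of synthetase, 52.9% of splicing and 56.3% of factor genes were higher. Of all genes at that level 77.0% were.

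Cuticle, detoxification, nuclear receptor and transthyretin-related genes were lower in all 3 strains more often than the 15.4% of all genes. Of 153 cuticle collagen genes tested, of 173 in the table, 52 (34.0%) were lower in all 3 strains and 0 higher, with col-175 at 17.2 CPM in FLAG and 77.1 CPM in MYC libraries. The gene lower in all 3 strains with the most reads was col-124, at 774 CPM in FLAG and 1741 CPM in MYC libraries. Of 55 transthyretin-related genes 33 were lower and 0 higher (median −2.29). Of 164 glutathione transferase, glucuronosyltransferase and cytochrome P450 genes 61 (37.2%) were lower and 2 higher, with ugt-17 at −2.95 ± 0.19. Of 193 nuclear hormone receptor genes 70 (36.3%) were lower and 10 higher, and the higher ones include nhr-66 (2.40 ± 0.13) and the moulting regulator nhr-23 (2.35 ± 0.20). Of 281 MATH, BATH and F-box genes 49 (17.4%) were lower, near the share of all genes, and 10 higher, with bath-42 at 1.97 ± 0.18. Of 23 histone genes tested, of 70 in the table, 11 (47.8%) were lower and 0 higher, such as his-2 at 18.3 CPM in FLAG and 68.7 CPM in MYC libraries (−1.87 ± 0.18). Histone copies are nearly identical, so their reads are uncertain between genes. Read numbers were low: a mean under 10 CPM held for 144 of the 164 detoxification genes and 165 of the 193 receptor genes. It also held for 258 of the 281 MATH, BATH and F-box genes and 49 of the 55 transthyretin-related genes. Of all genes under 10 CPM 20.4% were lower in all 3 strains and 1.34% higher. A gene with so few reads could pass the filter on low counts through its MYC libraries alone. One was ttr-57, with 0 CPM in FLAG and 0.372 CPM in MYC libraries. Such genes could hardly be called higher, so these counts describe the groups and lend them no support.

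Genes of muscle and intestine were often called in opposite directions in different strains, and so were those of several other lists. Of 38 body wall muscle genes 22 (57.9%) were called in opposite directions, against 14.2% of all genes, 5 were higher in all 3 strains, such as the ryanodine receptor gene unc-68 (1.40 ± 0.19, and −0.15 with total-count scaling), and 2 were lower. Of 41 intestine genes 17 (41.5%) were called in opposite directions. In all 3 strains 13 were lower, such as spp-17, and 6 higher, such as vit-2 (2.28 ± 0.24). Opposite calls also made up 40.6% of aminoacyl-tRNA synthetase, 39.4% of proteasome and 36.7% of ribosomal protein genes. They made up 34.8% of histone and 33.3% of translation factor genes, and 30.9% of all genes between 10 and 100 CPM. Neuronal signalling genes had 4 higher and 5 lower of 33, and the higher ones include ehs-1 (3.07 ± 0.17) and the synaptic scaffold gene syd-2 (2.04 ± 0.15). Of 91 neuropeptide and insulin-like genes tested, of 138 in the table, 0 were higher in all 3 and 14 (15.4%) lower. Of 47 sperm genes 3 were higher and 7 (14.9%) lower, and spe-39, which acts in vesicle traffic, had 2.65 ± 0.16. Only 103 of 1223 chemoreceptor genes in the table had enough reads to be tested, of which 13 (12.6%) were lower in all 3 and 0 higher. The lower shares of the neuropeptide, sperm and chemoreceptor genes were at or below the 15.4% of all genes. Sums of 4 neuron markers were 9.66 to 44.6 CPM in FLAG and 17.6 to 31.7 CPM in MYC libraries, and of 4 sperm markers 5.78 to 19.8 CPM (FLAG) and 6.05 to 18.99 CPM (MYC).

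**Figure D5:**
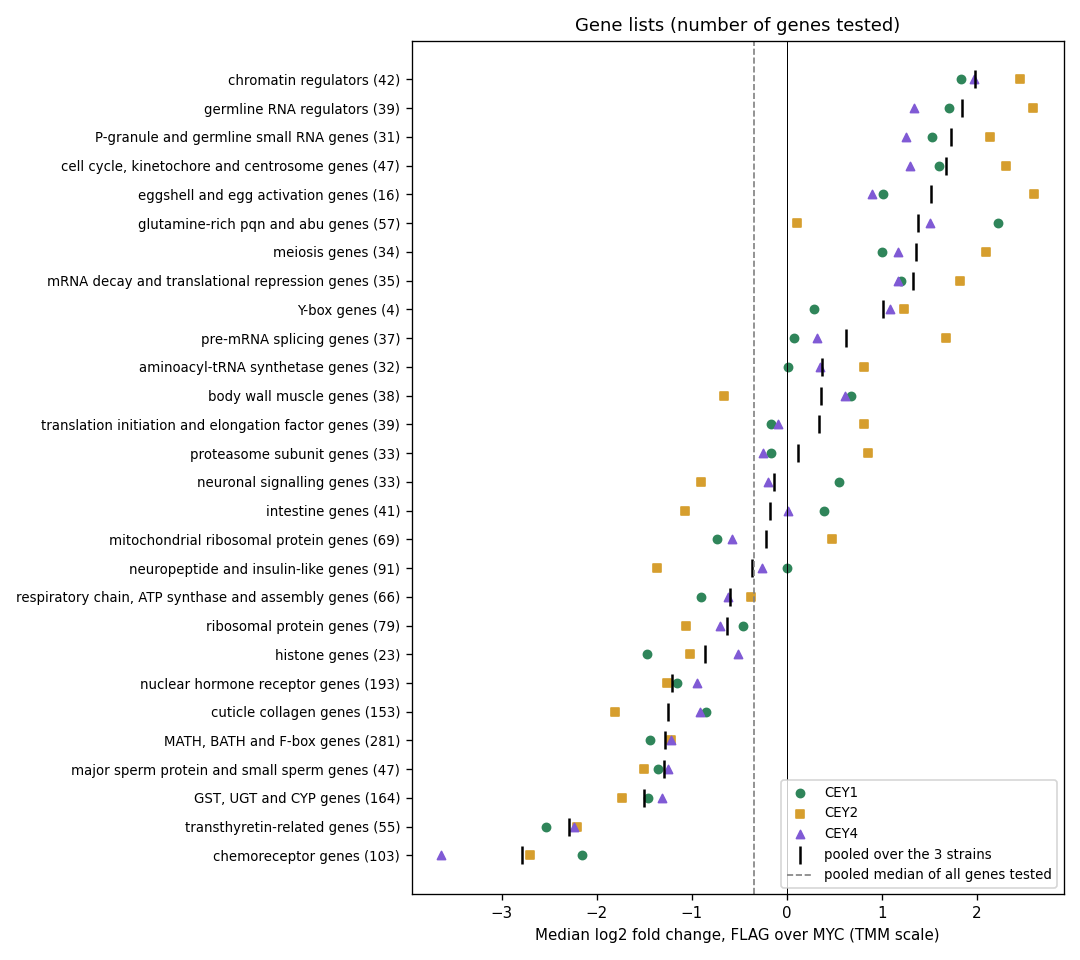
Median log2 fold change of FLAG over MYC (x axis, TMM scale) for 28 gene lists (y axis), in each strain and in the fit over the 3 strains, with the number of genes tested in brackets. Chromatin regulators (1.98) and germline RNA regulators (1.84) lie farthest right of the all-gene median of −0.34. With total-count scaling all medians shift left, and those of chromatin, germline RNA, P-granule and cell cycle genes are the ones that stay above 0.

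In 1536 of the 2154 genes called in opposite directions (71.3%), CEY2 was opposed to CEY1 or CEY4 while those did not oppose each other, and with total-count scaling in 1040 of 1717. In 506 genes the CEY2 FLAG IP was higher than its control while CEY1 and CEY4 were lower, and in 322 genes CEY2 was lower while CEY1 and CEY4 were higher. Among genes with a standard symbol and a mean of at least 10 CPM with either antibody, those with the strongest opposition were the collagen genes col-97 and col-109, the uterine-secreted protein gene ule-5 and pqn-94. For col-97 the FLAG means were 137 CPM in CEY1, 18.7 CPM in CEY2 and 10.9 CPM in CEY4, and the MYC means were 31.7, 77.0 and 9.51 CPM. Its log2 fold change was −2.04 in CEY2 and 0.19 in CEY4, and with CEY1 it was positive and of about the size of that in CEY2, which gave 0.10 ± 0.52 over the strains (adjusted p = 0.866 by edgeR, and −1.42 with total-count scaling). A pooled value near 0 thus stood for changes of about equal size in opposite directions.

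The cey genes themselves belong only in part to the shared set. The mRNAs of cey-1 (2.22 ± 0.25) and cey-4 (1.53 ± 0.33) were higher in all 3 strains. With total-count scaling they had 0.67 and −0.02, and neither was higher in all 3. Each had its largest change in the strain that carries its tagged copy. The same held for cey-2, with 3.02 in CEY2, −1.61 in CEY1 and 0.25 in CEY4. The mRNAs of cey-2 (0.49 ± 0.57, adjusted p = 0.461 by edgeR) and cey-3 (0.27 ± 0.18, adjusted p = 0.203) were not called over the strains, with −1.03 and −1.27 on the total-count scale, and were called in opposite directions in different strains. Counts from a transgene and from the gene of the same name cannot be separated, so the value in a gene's own strain includes both.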

How the data were processed

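RNA recovered from beads with Trizol was turned into ScriptSeq v2 libraries, per the labels. The authors deposited raw counts per gene for 20182 genes in 12 libraries. For the aligner, the counter, the genome build and shared reads, the sources used here give nothing. A second deposited table of log2 values made from these libraries was not used. Symbols were matched by identifier (18778 of 20182).

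The tests used edgeR 4.0.16 (under R 4.3.3). Its filterByExpr by group (minimum count 10) left 15194 genes, scaled by TMM. Genes were tested by quasi-likelihood F tests, two-sided, with Benjamini-Hochberg adjustment over all genes tested and a threshold of 0.05. The fit over the strains had strain and antibody as terms (common biological coefficient of variation 0.278). The strain contrasts and their differences came from a fit with 1 mean per group over all 12 libraries (0.0476), in which 6 groups of 2 share the spread. Standard errors (SE) derive from the F statistic. The code was tested on simulated data.

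The members and lists were chosen with earlier results of these data known. Genes were named when called in the fit with strain and in the same direction in all 3 strains, with FLAG and MYC libraries separated, a mean of at least 10 CPM with the higher antibody and a standard symbol, histones and major sperm proteins aside. The first 12 in each direction by the change in the weakest strain were taken. From each of 28 lists up to 3 members of the leading direction and 2 of the other were available, and the 4 cey genes and the 4 most opposed genes were added. The groups by read level, the 12 most abundant FLAG genes and the abundant lower genes, such as col-124, were chosen after their values were seen. Alternatives were total-count scaling, DESeq2 1.42.0, no filter, thinning to 3353523 counts, a replicate block, leaving out each library, an averaged contrast and a minimum change. Leaving out a strain was chosen after seeing the data. Since the reads carry no molecular identifiers, limits set by depth cover counting error only. Replicates differed by more than counting noise in all 6 groups.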

Additional observations from a re-analysis of the deposited data

Results flagged for a closer look

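The FLAG over MYC change differed between strains in 8784 of the 15194 genes tested (edgeR's interaction test, adjusted p under 0.05), so most named genes are listed here for that reason. Among the 12 genes ranked highest, the highest minus the lowest strain log2 fold change was 0.99 for pqn-20, 0.81 for pqn-41, 0.63 for both pdzd-8 and pqe-1, 0.49 for apr-1, 0.41 for npp-14, 0.39 for lin-36, 0.38 for sumv-1, 0.31 for dnj-5, 0.30 for wnk-1 and 0.23 for cbp-1. In each of them the weakest strain still lay above 3 on the log2 scale.

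Among the 12 ranked lowest it was 1.85 for dct-11, 1.56 for rpl-36.A, 1.23 for sfxn-5, 1.18 for mlp-1, 1.08 for spp-17 and 0.35 for rps-19. The cey genes spread by 4.63 (cey-2), 2.42 (cey-4), 1.92 (cey-1) and 1.202 (cey-3), and those chosen for opposition by 4.29 (pqn-94), 4.14 (col-97), 3.78 (col-109) and 3.76 (ule-5). The smallest adjusted p in these genes was 1.26e-34 (cey-2) and the largest 0.0382 (cbp-1), by edgeR. Of the 98 other genes taken from the lists, the change differed between strains in 66.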

How the results depend on the processing

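The balance of higher and lower calls depended on the scaling. With total counts in place of TMM, 1047 genes were higher and 12008 lower over the strains, and 744 were higher and 8053 lower in all 3. On that scale cey-2 (−1.03), cey-3 (−1.27), cey-4 (−0.024), col-97 (−1.42) and pqn-94 (−1.39) changed sign, as did pqn-94 without the CEY1 strain (−1.08) and with DESeq2. Of these, cey-4 alone was called on the TMM scale. The values of cey-2, cey-3, col-97, pqn-94, col-109 and ule-5, none of them called over the strains, also changed sign under other alternatives, such as leaving out a strain or a library. The cause was not tested. Requiring a log2 fold change of at least 1 left 1658 genes higher in all 3 strains and 1692 lower. All 24 top-ranked genes were called in the same direction under every alternative run. For the lower ones among them total-count scaling could not have turned the direction.

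Leaving out each library in turn gave 4162 to 4290 higher and 5357 to 5718 lower over the strains, 3087 to 3187 higher and 2045 to 2284 lower in all 3, and 1977 to 2166 in opposite directions. DESeq2 gave 2933 higher and 2118 lower in all 3, no filter 3259 and 2176, and thinning every library to the smallest 2150 and 1927, so depth limits the counts. Same-numbered libraries did not deviate together (r of −0.0263 to −0.00182). Values near 0 cannot show whether such libraries came from the same culture, so no pairing was assumed. With a replicate block 3155 genes were higher and 2251 lower in all 3, and 3915 and 5167 over the strains.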
